A study of Homo sapiens with 6 samples.

Results

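Eph receptors, ephrins, semaphorins and plexins are the families of contact and secreted cues that steer axons, vessels and migrating cells. Their genes were examined in MUM2B cells, which the labels give as a human melanoma line. The members were chosen by a rule on gene symbols that takes every Eph receptor, ephrin, class 3 to class 7 semaphorin and plexin gene in the deposited tables: 51 of 58735 genes, made up of 14 Eph receptors, 8 ephrins, 20 semaphorins and 9 plexins. RNA from 2 groups of 3 libraries was sequenced: cells stably carrying an empty vector (EV) and cells stably overexpressing LACTB, a mitochondrial beta-lactamase-like protein. All cells were grown in RPMI 1640 with 10% serum, with no drug or time course named. The labels do not say whether a line is 1 clone or a pool, nor whether the replicates were separate cultures. All p-values therefore speak only of the variation among these 6 libraries, which may be technical. The comparison asks which guidance genes differ in level when LACTB is raised.

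As background, Eph receptors are receptor tyrosine kinases, and ephrins are their membrane-bound ligands on neighbouring cells. A-type receptors mostly bind ephrin-A ligands, which are held in the membrane by a lipid anchor, and B-type receptors bind ephrin-B ligands, which span the membrane and signal back into their own cell. Semaphorins signal mainly through plexins, whose inner part switches off small Ras-type GTPases. Secreted class 3 semaphorins also need a neuropilin co-receptor for most plexin partners. In melanoma and in vessels these pairs are known for their roles in cell repulsion, adhesion and the sorting of arteries from veins.

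The libraries held 16978799 to 18395631 reads in genes, and, for an exon length of 2 kb, 3 reads amounted to between 0.0827 and 0.0872 FPKM (fragments per exon kilobase, corrected for library size). LACTB stood at 3.39 to 4.71 FPKM in the EV libraries and 161 to 174 FPKM in the LACTB libraries, so every library matched its label. EV replicate 3 stood apart: its reads differed from those of EV replicates 1 and 2 by a chi-square of 10.8 and 11.2 per degree of freedom, against 2.90 between those replicates and 1.97 to 4.48 among LACTB libraries, and 3.61% of its reads were mitochondrial against 4.65% to 5.62% elsewhere. Of 16 melanocyte markers, 15 lay under 1 FPKM, with TYR, DCT and SOX10 under 0.05 FPKM. The exception was RAB27A, which fell 1.24-fold (limma, adjusted p = 0.00929), so the labelled melanoma identity rests on the labels. Among the 15, TYRP1 (means of 0.294 and 0.643 FPKM) and MITF (0.657 and 0.864 FPKM) were higher in every LACTB library. SLC24A5 was lower in each, on 16 and 3 reads. TYRP1 and MITF rose in the later test of genes averaging at least 10 reads (limma voom, adjusted p = 0.0036 and 0.0478). As TPM only TYRP1 passed (limma, adjusted p = 0.0465, against 0.204 for MITF). With all genes kept, neither did (limma, adjusted p = 0.0642 and 0.318). Of 14 endothelial markers, 6 reached 1 FPKM, among them TIE1, ROBO4 and CDH5, while PECAM1, KDR and VWF did not. Their summed level was 117.8 to 128.1 FPKM with EV and 83.6 to 90.8 FPKM with LACTB, and of the 6 tested markers CDH5, the vascular endothelial cadherin, fell 3.57-fold and none rose. CDH5 averaged 49.8 FPKM with EV and 14.0 FPKM with LACTB, and the other tested markers passed no threshold. Their EV and LACTB means were 36.3 and 36.3 FPKM for TIE1, 17.2 and 17.2 for ROBO4 and 11.2 and 10.3 for FLI1. Those of EGFL7 were 6.47 and 7.38 FPKM and those of ESAM 2.10 and 1.75 FPKM. Markers of neurons, fibroblasts and leukocytes (27 genes in 3 lists) were all under 1 FPKM, and of 8 epithelial markers KRT8, KRT18 and CLDN4 were above it. CLDN4 rose 1.48-fold, KRT8 fell 1.13-fold and KRT18 fell 1.12-fold (limma, adjusted p = 0.00239, 0.0124 and 0.0205). Without a filter on low values, PECAM1 also fell, from 0.393 to 0.147 FPKM (limma, adjusted p = 0.0237), and MAP2 and ESRP1 rose (limma, adjusted p = 0.0412 and 0.0423). The part of these markers in the guidance gene results was not tested. In bulk RNA, fewer cells of a type and less RNA per cell cannot be told apart.

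Guidance genes that changed were mostly lower with LACTB. EPHB2, EPHB1 and EPHB4, the B-type Eph receptors, fell, as did the semaphorins SEMA3A, SEMA3E, SEMA4D, SEMA6B and SEMA7A and the ephrin EFNA5, while EFNB2, a ligand of B-type receptors, and the plexin PLXNA2 rose. EPHA2, the Eph receptor with the highest level in these cells, passed no threshold. Of the 51 members, 24 passed the filter, which asked for a 6-library mean of 1 FPKM or more, and each of these had a mean above 1 FPKM in both groups. Of those 24, 9 fell and 2 rose at an adjusted p under 0.05 (limma on log2(FPKM + 1), Benjamini-Hochberg over all tested genes). Among all 11875 tested genes, 17.2% fell and 14.8% rose (32% in either direction). The share of members was 37.5% lower and 8.33% higher, and the median log2 fold change of the 24 was -0.14, beside -0.01 over all tested genes. All 3 LACTB libraries lay below all 3 EV libraries in 11 of the 24 members (25.1% of all tested genes) and above them in 2 (22.3%).

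**Figure D1:**
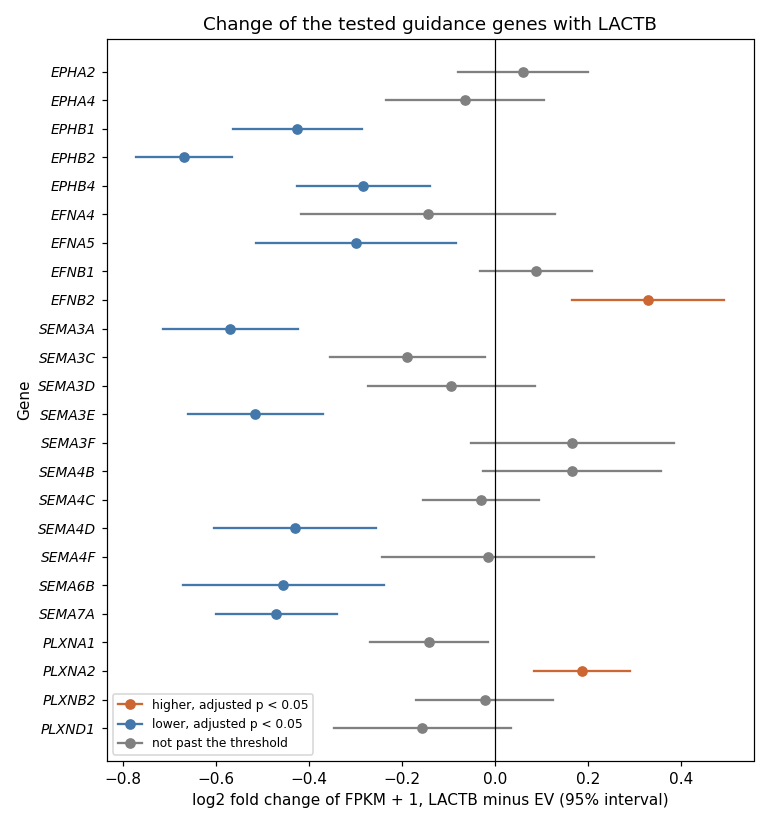
Log2 fold change of FPKM + 1 (LACTB minus EV, horizontal axis) with its 95% limma interval for the 24 tested guidance genes (vertical axis, ordered by family). Blue genes fell, orange genes rose and grey genes passed no threshold; the 3 B-type Eph receptors all lie left of 0, whereas the intervals of EPHA2 and EPHA4 span it.

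Among the Eph receptors, only 5 of 14 genes passed the filter, and the 3 that changed were all of the B type. EPHB2 (ENSG00000133216, chr1:22710839-22921500) stood at 11.0, 11.4 and 11.6 FPKM in EV replicates 1 to 3 and at 6.55, 6.81 and 6.98 FPKM in LACTB replicates 1 to 3. The groups were well apart, with every LACTB library below every EV library. Its mean went from 11.4 ± 0.309 to 6.78 ± 0.215 FPKM (SD, n = 3 each), a ratio of 1.68, and the difference on the log2 scale was -0.67 (SE 0.044; limma, adjusted p = 9.43e-05). This was the largest fall among the tested members on that scale. EPHB1 (chr3:134597801-135260467) stood at 7.65, 7.56 and 6.70 FPKM with EV and at 5.11, 5.06 and 5.37 FPKM with LACTB. The LACTB values were closely grouped and all below the lowest EV value, that of EV replicate 3, and the mean was 1.41-fold lower (log2 fold change -0.42, SE 0.059; limma, adjusted p = 0.00222). EPHB4 (chr7:100802565-100827521), the receptor that marks veins and pairs with ephrin-B2, stood at 4.64, 4.72 and 4.36 FPKM with EV and at 3.55, 3.86 and 3.34 FPKM with LACTB. Its exons share 69 of 6435 bases with SLC12A9 on the other strand, which stood at 1.114 and 1.156 FPKM. EPHB4 had the smallest fall of the 3, 1.28-fold, without overlap between the groups (log2 fold change -0.28, SE 0.060; limma, adjusted p = 0.0124). Summed over the 5 B-type genes, the level was 22.7 to 23.75 FPKM in EV libraries and 15.2 to 15.7 FPKM in LACTB libraries. EPHB2 made up 43.0% to 51.2% of that sum.

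The 3 B-type receptors that fell and the ephrin-B ligand that rose are shown here by the 250 bases before their start in RefSeq (GRCh38.p14), because they moved in opposite directions and bind each other. Capitals mark matches on either strand to 1 of 5 searched motifs, and each sequence reads 5′ to 3′ along the gene. The windows are chr3:134795010-134795259 (plus strand) for EPHB1, whose RefSeq start lies inside the longer GENCODE gene, chr1:22710588-22710837 (plus) for EPHB2, chr7:100827524-100827773 (minus) for EPHB4 and chr13:106535663-106535912 (minus) for EFNB2.
EPHB1: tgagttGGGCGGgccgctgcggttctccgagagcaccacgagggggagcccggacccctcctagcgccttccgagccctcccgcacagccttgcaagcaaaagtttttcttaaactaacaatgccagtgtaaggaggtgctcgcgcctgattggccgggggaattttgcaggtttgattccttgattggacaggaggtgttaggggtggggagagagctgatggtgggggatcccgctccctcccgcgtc
EPHB2: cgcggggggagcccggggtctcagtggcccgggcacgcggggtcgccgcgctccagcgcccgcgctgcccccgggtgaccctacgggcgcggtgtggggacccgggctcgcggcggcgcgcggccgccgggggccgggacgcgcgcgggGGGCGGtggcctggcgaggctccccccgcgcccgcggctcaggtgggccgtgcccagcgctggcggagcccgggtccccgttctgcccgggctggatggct
EPHB4: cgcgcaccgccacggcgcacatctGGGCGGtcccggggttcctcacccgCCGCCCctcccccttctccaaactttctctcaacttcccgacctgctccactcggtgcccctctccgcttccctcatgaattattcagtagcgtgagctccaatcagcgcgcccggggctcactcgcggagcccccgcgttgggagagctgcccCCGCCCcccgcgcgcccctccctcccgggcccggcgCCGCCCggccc
EFNB2: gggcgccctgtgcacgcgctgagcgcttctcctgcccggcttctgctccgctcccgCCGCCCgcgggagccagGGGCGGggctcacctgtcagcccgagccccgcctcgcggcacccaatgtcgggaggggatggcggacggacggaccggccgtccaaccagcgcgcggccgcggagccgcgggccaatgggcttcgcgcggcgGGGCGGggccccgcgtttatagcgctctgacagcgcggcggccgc
The letters in capitals are all matches to the SP1 motif GGGCGG, which was in all 4 windows and in 42.6% of 35116 promoter windows of the same length. It occurred 1 time each before EPHB1 and EPHB2, 4 times before EPHB4 and 3 times before EFNB2. The TEAD motif GGAATG (11.9% of all windows) and the AP-1 motif TGANTCA (6.57%) were absent from these 4 windows. So were the E-box CACGTG (6.34%) and the ATF4 motif TGATGNAA (3.14%). GC content was 60.8% before EPHB1, 84.8% before EPHB2, 72.8% before EPHB4 and 78.4% before EFNB2, against a median of 58.0% over all windows. These matches describe letters and not bound sites. Of the 11 members that changed, 9 had an entry in the promoter table.

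The A-type receptors were dominated by EPHA2, a receptor with frequent high levels in invasive melanoma. EPHA2 stood at 100.6, 104 and 92.3 FPKM with EV and at 98.0, 104 and 107 FPKM with LACTB. The groups overlapped, and the log2 fold change was 0.06 with a 95% interval of -0.08 to 0.20 (limma, adjusted p = 0.481). EPHA2 alone gave 78.8% to 86.0% of the summed FPKM of all 14 Eph receptors. The ratio of EPHB2 to EPHA2 within a library was 0.1095, 0.1097 and 0.126 with EV and 0.0669, 0.0652 and 0.0650 with LACTB, without overlap. EPHA4, a receptor that binds ligands of both types, lay at 1.60 to 1.99 FPKM over the 6 libraries with overlapping groups (log2 fold change -0.07, 95% interval -0.24 to 0.10; limma, adjusted p = 0.527). The remaining 9 Eph receptors were each under 0.1 FPKM as a mean. EPHA1 had 22 reads summed over EV and 21 over LACTB, and EPHB3 had 6 and 1. EPHA3, EPHA5, EPHA6 and EPHA7 had at most 3 reads in all, and EPHA8, EPHA10 and EPHB6 had none in any library. At this depth a count of 0 allows up to the level of 3 reads given above for a gene of that length, for counting error only.

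The ephrin ligands went both ways. EFNB2 (chr13:106489731-106535662), the arterial partner of EPHB4, stood at 3.72, 3.69 and 4.31 FPKM with EV and at 5.52, 4.96 and 4.98 FPKM with LACTB. Every LACTB library was above every EV library, and the mean rose 1.32-fold, with group means of 3.91 ± 0.352 and 5.15 ± 0.320 FPKM (log2 fold change 0.33, SE 0.069; limma, adjusted p = 0.0118). Its exons share 1313 of 5019 bases with the opposite-strand gene AL138689.2, which had 50 reads over all libraries, against 1054 with EV and 1380 with LACTB for EFNB2. The ratio of EFNB2 to EPHB4 was 0.801, 0.782 and 0.988 with EV and 1.555, 1.285 and 1.49 with LACTB. In FPKM the ligand was thus below its receptor in each EV library and above it in each LACTB library. Which of the 2 genes is higher depends on the exon lengths used, whereas the change of the ratio between groups does not. EFNB1, the ephrin with the highest level, stood at 12.6 to 13.8 FPKM with EV and 13.5 to 14.6 FPKM with LACTB (log2 fold change 0.09, 95% interval -0.03 to 0.21; limma, adjusted p = 0.231). EFNA5 (chr5:107376889-107670895), a lipid-anchored ligand, stood at 4.03, 3.24 and 4.21 FPKM with EV and at 2.69, 2.89 and 3.15 FPKM with LACTB. Its groups were separated by less than 0.1 FPKM, between EV replicate 2 and LACTB replicate 3. EFNA5 fell 1.31-fold by the ratio of means (log2 fold change -0.30; limma, adjusted p = 0.0437), a call that was lost without EV replicate 1 (adjusted p = 0.118), EV replicate 3 (0.1105), LACTB replicate 1 (0.120), LACTB replicate 2 (0.111) or LACTB replicate 3 (0.062). EFNA4 lay at 1.80 to 2.79 FPKM with EV and 1.76 to 1.97 FPKM with LACTB, with overlap and a wide interval of -0.42 to 0.13 (log2 fold change -0.14; limma, adjusted p = 0.388). EFNA1 and EFNA3, which neighbour EFNA4 on chromosome 1, were under the filter at group means of 0.960 and 0.851 FPKM and of 0.430 and 0.313 FPKM. EFNA2 and EFNB3 had at most 6 reads in all.

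**Figure D2:**
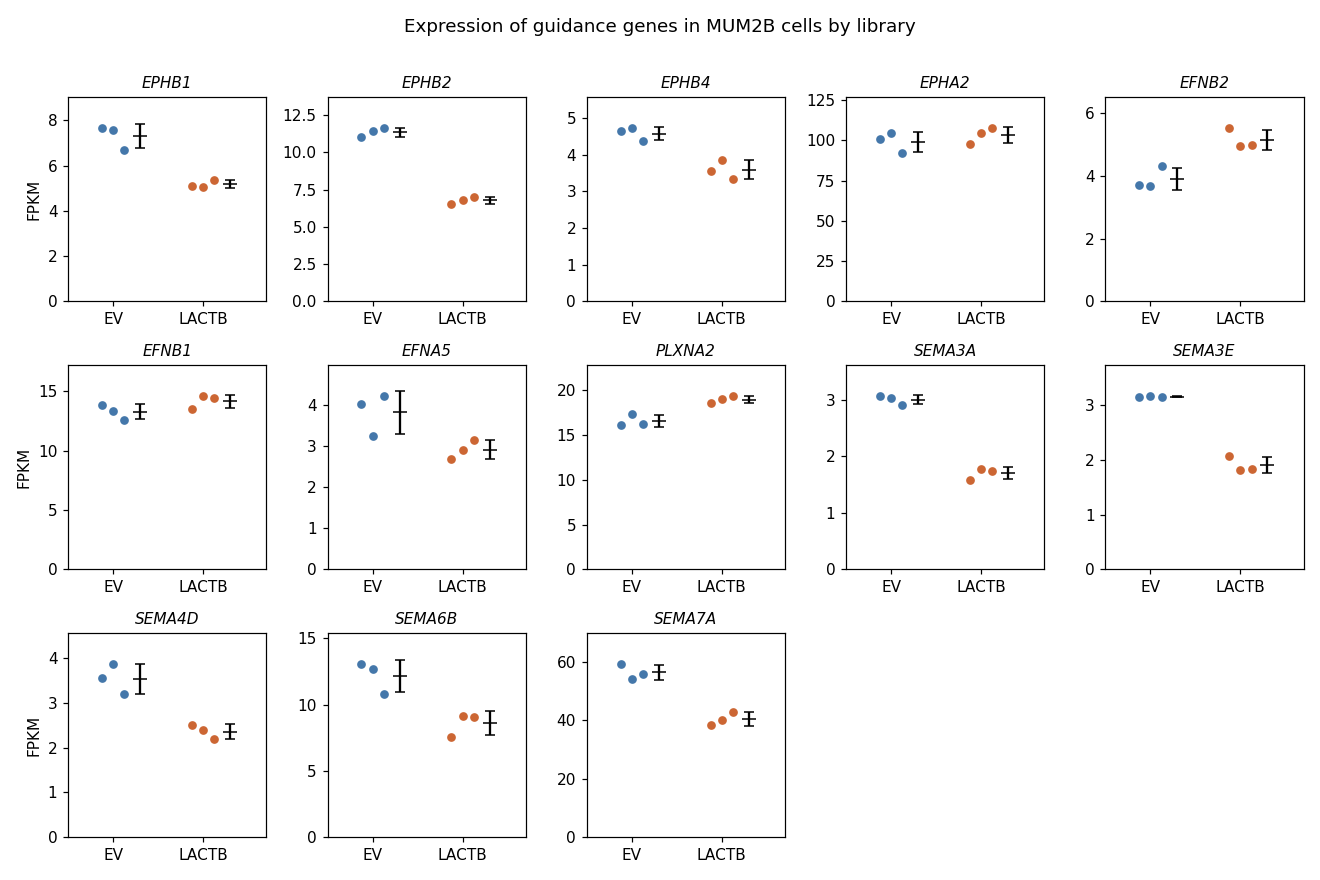
FPKM (vertical axis, starting at 0) of 13 guidance genes in each EV (blue) and LACTB (orange) library, with the group mean and SD in black (n = 3 each). The 11 genes that changed have separated groups, whereas the groups of EPHA2 and EFNB1 overlap.

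Of the 7 secreted class 3 semaphorins, SEMA3A and SEMA3E fell. SEMA3A (chr7:83955777-84492724), the founding axon repellent, which acts through neuropilin 1 and A-type plexins, stood at 3.06, 3.02 and 2.91 FPKM with EV and at 1.57, 1.77 and 1.74 FPKM with LACTB. The highest LACTB library was more than 1 FPKM below the lowest EV library. Its mean was 1.77-fold lower, the largest fall of a tested member by the ratio of means (log2 fold change -0.57, SE 0.062; limma, adjusted p = 0.000789), on 1509 and 846 reads summed over each group. SEMA3E (chr7:83363238-83649113), which binds plexin D1 without a neuropilin, stood at 3.16, 3.17 and 3.15 FPKM with EV and at 2.08, 1.81 and 1.84 FPKM with LACTB. The EV libraries were nearly equal, and the mean was 1.65-fold lower (log2 fold change -0.52, SE 0.062; limma, adjusted p = 0.00118). SEMA3F, a tumour-suppressive ligand of neuropilin 2, had the highest level of the class and overlapping groups, at 7.01 to 8.92 FPKM with EV and 8.12 to 9.79 FPKM with LACTB (log2 fold change 0.17, 95% interval -0.05 to 0.38; limma, adjusted p = 0.219). The ratio of SEMA3A to SEMA3F was 0.343, 0.386 and 0.4145 with EV and 0.194, 0.195 and 0.178 with LACTB. SEMA3C, at 5.92 to 6.82 FPKM with EV and 5.12 to 5.95 FPKM with LACTB, passed no threshold (log2 fold change -0.19; limma, adjusted p = 0.0842) but did on the reads (limma voom, adjusted p = 0.0351) and without EV replicate 1 (limma, adjusted p = 0.048). SEMA3D lay at 1.19 to 1.34 FPKM with EV and 1.08 to 1.161 FPKM with LACTB, without overlap but past no threshold (log2 fold change -0.09; limma, adjusted p = 0.39). SEMA3B, at 0.803 and 0.784 FPKM, and SEMA3G, with 18 and 6 reads, were under the filter.

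The membrane-bound semaphorins that changed all fell, in classes 4, 6 and 7. SEMA7A (chr15:74409289-74433958), a lipid-anchored semaphorin that binds integrin beta 1 and plexin C1, had the highest level of all 20 semaphorins. It stood at 59.1, 54.0 and 55.95 FPKM with EV and at 38.2, 40.2 and 42.75 FPKM with LACTB, each LACTB library being over 10 FPKM below each EV library. The mean went from 56.3 ± 2.59 to 40.4 ± 2.26 FPKM, a ratio of 1.39 (log2 fold change -0.47, SE 0.055; limma, adjusted p = 0.00108). SEMA7A gave 38.05% to 46.9% of the summed semaphorin FPKM, and that sum was 119 to 131 FPKM in EV libraries and 99.0 to 108 FPKM in LACTB libraries. SEMA6B (chr19:4542593-4559808), a transmembrane ligand of A-type plexins, stood at 13.0, 12.7 and 10.8 FPKM with EV and at 7.59, 9.18 and 9.11 FPKM with LACTB. EV replicate 3 and LACTB replicate 1 were the low libraries of their groups, and the groups did not overlap (1.41-fold lower, log2 fold change -0.45, SE 0.092; limma, adjusted p = 0.00996, and 0.00625 without EV replicate 3). SEMA4D (chr9:89360787-89498130), the ligand of plexin B1 known in immune and vessel cells, stood at 3.54, 3.85 and 3.19 FPKM with EV and at 2.50, 2.38 and 2.19 FPKM with LACTB. It was 1.497-fold lower, again with no overlap (log2 fold change -0.43, SE 0.074; limma, adjusted p = 0.00534). SEMA4B, the class 4 semaphorin with the highest level, stood at 24.6, 23.6 and 19.6 FPKM with EV, where replicate 3 was low, and at 24.6, 25.9 and 25.7 FPKM with LACTB (log2 fold change 0.17, 95% interval -0.03 to 0.36; limma, adjusted p = 0.167). SEMA4C (group means 5.31 and 5.18 FPKM) and SEMA4F (1.52 and 1.49 FPKM) had log2 fold changes of -0.03 and -0.02, with intervals of -0.16 to 0.09 and -0.24 to 0.21. SEMA4G, SEMA6A and SEMA6C were under the filter at 0.322, 0.134 and 0.221 FPKM with EV and 0.240, 0.116 and 0.209 FPKM with LACTB. SEMA4A, SEMA5A, SEMA5B and SEMA6D were each under 0.1 FPKM.

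**Figure D3:**
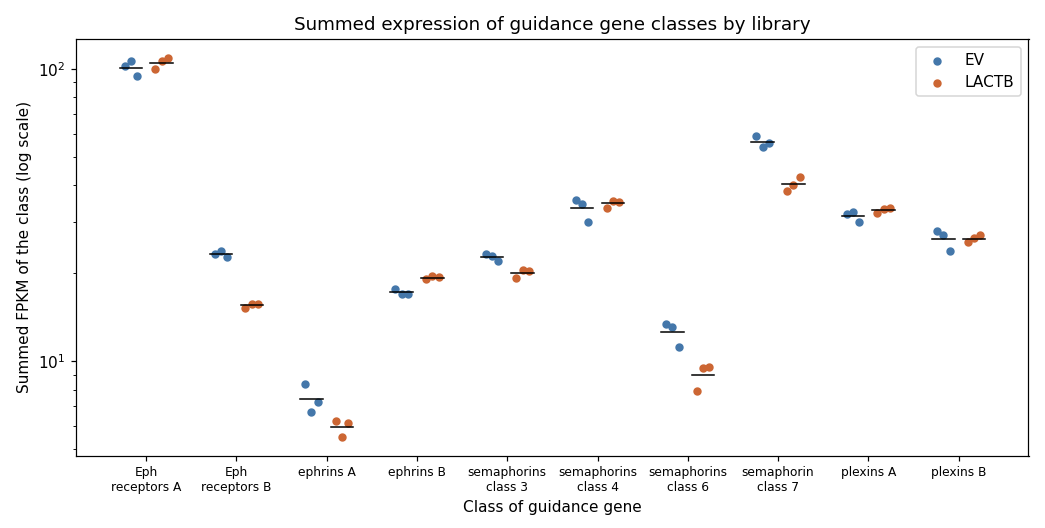
Summed FPKM of each guidance gene class (vertical axis, log scale) in each EV (blue) and LACTB (orange) library, with group means as black lines. The sums of B-type Eph receptors, ephrins A and class 3, 6 and 7 semaphorins are lower in every LACTB library and that of ephrins B is higher, whereas class 4 semaphorins, A-type Eph receptors and both plexin classes overlap between the groups.

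The plexins, the receptors of the semaphorins, passed the filter for 4 of 9 genes. PLXNA2 (chr1:208022242-208244320), a receptor of class 3 and class 6 semaphorins, stood at 16.1, 17.3 and 16.2 FPKM with EV and at 18.6, 19.0 and 19.3 FPKM with LACTB. The LACTB libraries were all higher, and the rise was small, 1.15-fold (log2 fold change 0.19, SE 0.044; limma, adjusted p = 0.0172). This call was lost without EV replicate 1 (adjusted p = 0.058), LACTB replicate 2 (0.0636) or LACTB replicate 3 (0.0597). PLXNA1 stood at 15.1, 14.6 and 13.3 FPKM with EV and at 12.5, 13.1 and 13.0 FPKM with LACTB, without overlap but past no threshold (log2 fold change -0.14; limma, adjusted p = 0.0867), though past it without EV replicate 3 (limma, adjusted p = 0.0228) and on the reads (limma voom, adjusted p = 0.0406). PLXNB2, the receptor of several class 4 semaphorins and the plexin with the highest level, had overlapping groups at 22.7 to 26.5 FPKM with EV and 23.7 to 25.0 FPKM with LACTB. Its log2 fold change was -0.02 with a 95% interval of -0.17 to 0.12 (limma, adjusted p = 0.815). PLXND1, the receptor of SEMA3E, stood at 1.79 ± 0.174 and 1.499 ± 0.127 FPKM with overlapping groups (log2 fold change -0.16; limma, adjusted p = 0.188).

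Of the 10 members under the filter with a mean of at least 10 reads, 3 had all LACTB libraries above all EV libraries, and all 3 were plexins. The same held for 21.2% of the 3131 genes under the filter at that read depth. PLXNA3, a receptor of class 3 semaphorins, stood at 0.665, 0.574 and 0.460 FPKM with EV and at 0.953, 1.10 and 1.14 FPKM with LACTB, on 356 and 665 summed reads. PLXNB3 stood at 0.333, 0.425 and 0.222 FPKM with EV and at 0.583, 0.539 and 0.770 FPKM with LACTB, on 123 and 236 reads. PLXNB1, the receptor of SEMA4D, stood at 0.940, 0.815 and 0.844 FPKM with EV and at 1.23, 1.02 and 1.15 FPKM with LACTB, on 453 and 588 reads. All 3 genes thus had separated groups. None was tested by the main rule, since PLXNB1 missed it with a mean of 0.999 FPKM. On log2(FPKM + 1) without a filter, where 4.09% of 30629 genes rose and 4.58% fell, none passed (limma, adjusted p = 0.0573 for PLXNA3, 0.136 for PLXNB3 and 0.276 for PLXNB1). As TPM, where all 3 passed the filter, PLXNA3 rose (limma, adjusted p = 0.0185). PLXNB3 and PLXNB1 passed no threshold there (limma, adjusted p = 0.0888 and 0.119). A test of the reads for genes with a mean of at least 10, chosen after seeing these values, gave log2 fold changes of 0.92 for PLXNA3 (limma voom, adjusted p = 5.22e-05), 0.98 for PLXNB3 (limma voom, adjusted p = 0.00331) and 0.39 for PLXNB1 (limma voom, adjusted p = 0.0174). In that test 5 of 34 guidance genes rose and 11 fell, beside 16.4% and 17.3% of 14631 genes. PLXNC1, the receptor of SEMA7A, stood at 0.425 and 0.536 FPKM with overlapping groups (limma voom, adjusted p = 0.125), and PLXNA4 had 19 and 23 reads.

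**Figure D4:**
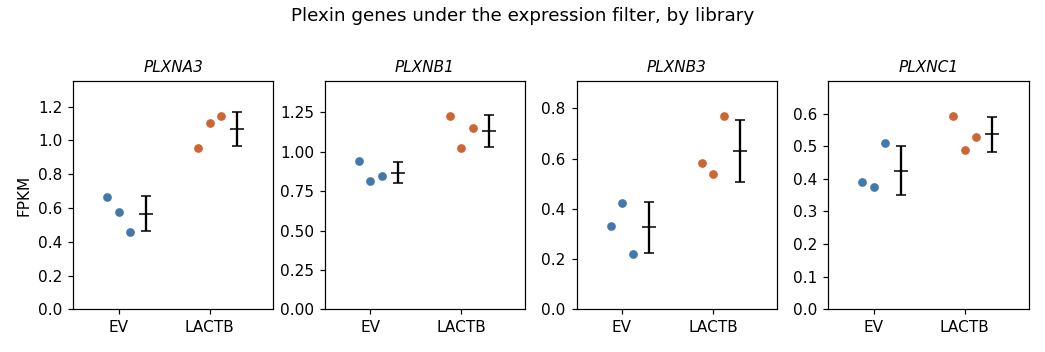
FPKM (vertical axis, starting at 0) of 4 plexin genes under the filter in each EV (blue) and LACTB (orange) library, with group mean and SD in black (n = 3 each). LACTB libraries lie above all EV libraries for PLXNA3, PLXNB1 and PLXNB3, and the groups overlap for PLXNC1.

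The neuropilins, which hold class 3 semaphorins for their plexins, changed in opposite directions. NRP1 stood at 14.7, 15.4 and 15.0 FPKM with EV and at 23.1, 22.1 and 21.3 FPKM with LACTB, a rise of 1.47-fold without overlap (log2 fold change 0.53, SE 0.044; limma, adjusted p = 0.000252). NRP2 stood at 11.5, 11.8 and 11.2 FPKM with EV and at 9.11, 8.84 and 8.60 FPKM with LACTB, and fell 1.30-fold (log2 fold change -0.35, SE 0.042; limma, adjusted p = 0.00129). The ratio of NRP1 to NRP2 was 1.28, 1.30 and 1.33 with EV and 2.54, 2.50 and 2.47 with LACTB. For this ratio and those of EPHB2 to EPHA2, EFNB2 to EPHB4 and SEMA3A to SEMA3F, a two-sided exact permutation test gave p = 0.1, which is the smallest that 3 against 3 libraries allow (0.1 also after Benjamini-Hochberg adjustment over the 4 ratios). Of the 8 genes in the list of semaphorin co-receptors, 4 were tested. Of these 1 rose and 3 fell, beside 14.8% and 17.2% of all tested genes. Besides NRP2, those that fell were MET, a receptor tyrosine kinase that associates with B-type plexins, 1.25-fold lower, and ITGB1, integrin beta 1, 1.159-fold lower. The ITGB1 call was lost without LACTB replicate 2 (limma, adjusted p = 0.0659) or 3 (limma, adjusted p = 0.0673). It was also lost without a filter (limma, adjusted p = 0.0625), as TPM (0.136), after quantile normalization and with the replicate block. Of those under the filter, the adhesion molecules L1CAM and NRCAM were higher in every LACTB library, at means of 0.401 and 1.03 FPKM and of 0.0590 and 0.218 FPKM. Without a filter both rose (limma, adjusted p = 0.0377 and 0.0248).

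Among genes that carry the signal inside the cell, falls outnumbered rises in both lists, as they did over all tested genes (17.2% lower, 14.8% higher). Of 23 tested effectors of plexins and semaphorins, 9 fell and 1 rose, with a median log2 fold change of -0.07. DPYSL2 and DPYSL3, collapsin response mediator proteins of semaphorin signalling, both fell. DPYSL2 averaged 7.17 ± 0.124 FPKM with EV and 5.44 ± 0.167 FPKM with LACTB, and DPYSL3 averaged 24.3 ± 0.677 and 19.5 ± 0.436 FPKM. CRMP1, of the same family, passed no threshold at 6.04 and 5.88 FPKM with overlapping groups (log2 fold change -0.03; limma, adjusted p = 0.668). DPYSL4 and DPYSL5 had no reads. LIMK1, the kinase that inactivates cofilin, fell 1.41-fold (log2 fold change -0.41; limma, adjusted p = 0.00216). ARHGEF11, which binds B-type plexins, rose 1.17-fold, a call lost on leaving out EV replicate 1 or 3 (limma, adjusted p = 0.0943 and 0.0813) or any LACTB replicate (0.0566, 0.0929 and 0.103 for 1, 2 and 3). The ARHGEF11 call was also lost without a filter (limma, adjusted p = 0.0831) and with the replicate block. Of 25 tested effectors of Eph receptors and ephrins, 9 fell and 3 rose, with a median of -0.10. The falls with the smallest p were those of ARHGAP35, 1.26-fold, RGS3, a G-protein regulator that binds ephrin-B, also 1.26-fold, and SDCBP, the syntenin scaffold of ephrin-B, 1.158-fold. The SDCBP call was lost when values were expressed as TPM (limma, adjusted p = 0.0588). GRB10, an adaptor that binds Eph kinases, rose 1.62-fold between means of 3.24 ± 0.145 FPKM (EV) and 5.26 ± 0.254 FPKM (LACTB; log2 fold change 0.56 by limma, adjusted p = 0.000524). ABL2, a kinase that shapes the actin skeleton, rose 1.19-fold, and the Src-family kinase FYN rose 1.11-fold (limma, adjusted p = 0.0417), a call lost on leaving out any EV replicate (0.109, 0.0654 and 0.0879 for 1, 2 and 3) or LACTB replicate 2 or 3 (0.136 and 0.124).

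**Figure D5:**
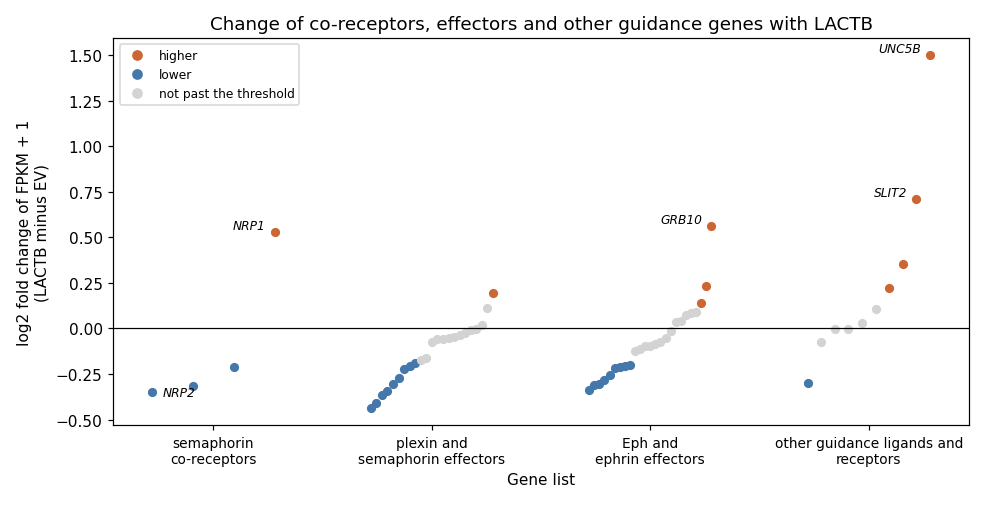
Log2 fold change of FPKM + 1 (vertical axis, LACTB minus EV) for the tested genes of 4 lists (horizontal axis), sorted within each list. Orange genes rose, blue genes fell and grey genes passed no threshold; UNC5B and SLIT2 lie highest.

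Among slits, netrins, repulsive guidance molecules and their receptors, UNC5B and SLIT2 rose. Of 10 tested genes in this list, 4 rose and 1 fell, with a median of 0.07, beside 14.8% and 17.2% of all tested genes and their median of -0.01. UNC5B, a netrin receptor of vessels that can trigger cell death without its ligand, stood at 0.731, 0.854 and 0.827 FPKM with EV and at 3.71, 4.47 and 4.14 FPKM with LACTB. Each LACTB library was over 4 times each EV library, and the mean rose 5.11-fold on 296 and 1495 reads (log2 fold change 1.499, SE 0.078; limma, adjusted p = 3.09e-05). SLIT2, the ligand of the ROBO receptors, stood at 0.474, 0.630 and 0.583 FPKM with EV and at 1.59, 1.65 and 1.43 FPKM with LACTB, a rise of 2.77-fold (log2 fold change 0.71; limma, adjusted p = 0.00134). UNC5B and SLIT2 passed the filter through the LACTB group alone, since their EV means were 0.804 and 0.562 FPKM, so their place in the count rests on the group where they were high. FLRT2, a ligand of UNC5 receptors whose EV mean of 0.939 FPKM was also under 1, rose 1.57-fold, a call lost without LACTB replicate 2 (limma, adjusted p = 0.0544). The repulsive guidance ligand RGMB, outside the naming rule and chosen after its values were seen, rose 1.19-fold (limma, adjusted p = 0.0417). That call was lost without a filter (limma, adjusted p = 0.116), as TPM (0.0514), and on leaving out EV replicate 1 or 3 (0.0994 and 0.102) or LACTB replicate 1 or 3 (0.107 and 0.104). The RGMB call was also lost without the variance trend and with the replicate block. NTNG1, a lipid-anchored netrin relative, fell 1.27-fold from 7.20 ± 0.290 to 5.67 ± 0.0240 FPKM.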

How the data were processed

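The authors deposited 1 table per library with a symbol, an Ensembl ID and an FPKM value for 58735 genes; per the submitters' processing notes, the tools named were DESeq2 (1.16.1), featureCounts (1.5.0-p3) and HISAT2 (2.0.5), and the build was GRCh38 (hg38), without roles or order. Whether counting used strand, and which annotation was counted, is not given in the sources used here. GENCODE release 29 (GRCh38) was the source of gene coordinates and exon lengths. FPKM times exon length fell on multiples of 1 fixed step in each library for 100% of values above 0 (tolerance 0.1 reads), and so gave the reads behind each value.

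The main test was limma 3.58.1 (R 4.3.3; lmFit, then eBayes with trend) on log2(FPKM + 1) for every gene whose mean reached 1 FPKM, with Benjamini-Hochberg adjustment. Such fold changes understate those of low genes, and folds given as a number of times are ratios of mean FPKM. The fit was also run on simulated reads with the same dispersion for every gene and no outlying library. EV replicate 3 stood apart in the real data, so that run does not measure false calls here. Exact permutation tests used scipy 1.17.1. The labels gave each library's group and number.

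The naming rule took every member with a mean of 0.1 FPKM or more and, from each of 4 partner lists, up to 3 risen and 3 fallen genes with the smallest p; members with fewer reads are named only to account for all of them. Members and lists were chosen with earlier results of these data known. Promoter sequences came from RefSeq (GRCh38.p14), and no protein sequence was used here. Other settings tried were TPM, quantile normalization, median-of-ratios scaling, a pseudocount of 0.1, a filter at 5 FPKM or none, no variance trend, the replicate number as a block, limma voom on recovered reads, a threshold of 0.01 and each library left out. The median-of-ratios factor was 1 for every library. That setting therefore repeated the main fit and was no separate check. No pair of libraries within a group agreed within sampling noise.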

Additional observations from a re-analysis of the deposited data

How the results depend on the processing

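EPHB1, EPHB2, EPHB4, EFNB2, SEMA3A, SEMA3E, SEMA4D, SEMA6B and SEMA7A kept their direction and call under every alternative in which they were tested, each library left out included, except that EPHB4 and EFNB2 were past 0.05 but not 0.01. EFNA5 also lost its call without a filter (limma, adjusted p = 0.135), as TPM (0.116) and with the replicate block (0.0599). The number of members that rose was 2, and became 1 at a mean of at least 5 FPKM, where 13 were tested, 1 with the replicate block, 5 with voom at a mean of at least 10 reads (added after seeing the data) and 0 at an adjusted p under 0.01. The number that fell was 9, and became 4 at a mean of at least 5 FPKM. EFNB2, EPHB4, EFNA5, SEMA3A, SEMA3E and SEMA4D lay under that filter and were not tested there. Leaving out 1 library gave 1 to 2 risen and 8 to 9 fallen members. Over all 11875 tested genes, 1758 rose and 2038 fell. At a mean of at least 5 FPKM, 1155 of 6980 genes rose. With the replicate block 1155 rose and 1324 fell, again of 11875. As TPM, 1295 of 16070 genes fell. At an adjusted p under 0.01, 847 of the 11875 rose and 1004 fell. Leaving out 1 library gave 1115 to 1505 risen, the lowest without LACTB replicate 2. Of plexin and semaphorin effectors, 10 of 23 were called. Without a filter 6 of 27 were called, where 4.09% of 30629 genes rose and 4.58% fell. Of the 23, 6 were called with the block and 5 at 0.01. With 1 library left out it was 6 to 8, the lowest without LACTB replicate 2. Of Eph and ephrin effectors, 12 of 25 were called, and 7 of 26 as TPM. Of other guidance genes, 5 were called, against 2 at a mean of at least 5 FPKM, 3 at 0.01 and 3 to 5 with 1 library left out (3 when any 1 LACTB replicate was left out). In those last fits SLIT2 was under the filter and so was not tested. Apart from genes that left the filter, the cause of these shifts was not tested.

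Signs turned only in genes past no threshold. With 1 library left out, the log2 fold change of SEMA4F ran from -0.077 to 0.055 (above 0 also at 0.026 and 0.0046, without LACTB replicates 1 and 3), that of SEMA4C from -0.067 to 0.0044 and that of PLXNB2 from -0.087 to 0.021 (0.00047 without LACTB replicate 1). PLXNB2 was at 0.00082 as TPM and 0.024 after quantile normalization. Same-numbered libraries did not deviate together (r of -0.126, 0.0194 and -0.0438 across genes), and none correlated best with its own number. No pairing by number was seen, but the labels do not say whether same-numbered libraries were prepared together, and so few libraries cannot exclude it. With the replicate block the PLXNA2 call was lost (limma, adjusted p = 0.0635). The filter kept out 27 members, of which 10 had a mean of at least 10 reads, and depth limits the others.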

Other observations

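SEMA3C, SEMA3E, SEMA3A and SEMA3D lie together on the minus strand of chromosome 7, within chr7:80742538-85186855. Of 31 annotated genes in this interval, 5 were tested: these 4 semaphorins and CACNA2D1, a calcium channel subunit. The interval was drawn from the start of SEMA3C to the end of SEMA3D, so 4 of the 5 are the members themselves. All 5 had negative log2 fold changes, from -0.09 for SEMA3D and -0.12 for CACNA2D1 (limma, adjusted p = 0.242) to -0.57 for SEMA3A. Only SEMA3A and SEMA3E passed the threshold. Over all tested genes 32% passed it in either direction, and the median log2 fold change was -0.01. A shared change of the region was not tested. PCLO, a presynaptic scaffold gene in the same interval, was under the filter at 0.271 FPKM with EV and 0.450 FPKM with LACTB, and HGF, the ligand of MET, was listed at 0 in every library.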
